A study of Homo sapiens with 10 samples.

Results

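The 8 genes described here encode the classical transcription factors of the epithelial-mesenchymal transition (EMT), namely SNAI1 and SNAI2, TWIST1 and TWIST2, ZEB1 and ZEB2, and PRRX1 and PRRX2. They were taken by name as the SNAI, TWIST, ZEB and PRRX pairs, and all 8 are among the 24050 genes listed in either count table. RNA-seq was performed on 10 libraries of human cells that either carry ZNF274 (WT) or lack it (KO). HEK293T, a line derived from human embryonic kidney, gave 3 WT libraries (S15, S16 and S17) and 3 ZNF274 KO libraries (S18, S19 and S20). Neural progenitor cells (NPCs) gave 2 WT libraries (S3 and S5) and 2 ZNF274 KO libraries (S1 and S2). ZNF274, a KRAB zinc finger protein, was deleted with CRISPR-Cas9 and paired guides that flank the gene, in HEK293T cells and in the embryonic stem cell line H1, which was then turned into NPCs through embryoid bodies. The samples are described as biological replicates on independent clones, but no label says which library came from which clone, so P values measure the spread between these libraries. The libraries held between 18621266 and 32285876 counts, and a count of 3, used as the floor of detection, equalled 0.0915 to 0.154 CPM, for counting error alone. CPM, the count scaled to a library of fixed size, was set by TMM over all 10 libraries. ZNF274 had 423 to 496 counts in each WT library and 0 in each KO library. Among markers of the labelled cells, SOX2 averaged 224 CPM in WT NPCs, and of the list set for the HEK293T line GATA2 averaged 24.2, WT1 3.83, PAX2 0.373 and the neurofilament gene NEFM 0.147 CPM in WT HEK293T cells, where PAX8 had no count. This list did not mark the line as a whole, since its sums were 26.2 to 32.7 CPM in WT HEK293T cells and 225 to 405 in WT NPCs, where NEFM averaged 314 CPM. The 2 cell types come in separate tables, so cell type and any batch of a table cannot be told apart.

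EMT is the change by which polarized, tightly joined epithelial cells loosen their junctions and become motile mesenchymal cells, and in the embryo it frees neural crest cells from the border of the neural plate. SNAI and ZEB proteins are zinc finger repressors that bind E-boxes in the promoters of junction genes such as CDH1, which encodes E-cadherin. TWIST proteins are basic helix-loop-helix (bHLH) factors that pair with E-proteins, and PRRX proteins are paired-related homeodomain factors of limb and head mesenchyme. ZEB1 and ZEB2 are held down in epithelia by the miR-200 family, whose genes the ZEB proteins repress in turn.

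The mature miR-200 sequences from RefSeq (GRCh38.p14) are shown because their target words set the ZEB genes apart from the other members. Capitals mark the seed, bases 2 to 8 counted from the 5′ end. The first 3 share one seed and the last 2 another.
hsa-miR-200b-3p: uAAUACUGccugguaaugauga
hsa-miR-200c-3p: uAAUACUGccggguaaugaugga
hsa-miR-429: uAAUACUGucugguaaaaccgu
hsa-miR-200a-3p: uAACACUGucugguaacgaugu
hsa-miR-141-3p: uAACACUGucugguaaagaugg

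The words complementary to these seeds, CAGTATT and CAGTGTT, were searched on the transcript strand of one annotated 3′ UTR per gene (hg19). The UTR of ZEB1 (2543 bases) held 6 of the first and 3 of the second, and that of ZEB2 (5373 bases) held 5 and 4. A total of 9 or more was found in 8 of 19775 UTRs, ZEB1 and ZEB2 included. This count takes no account of length, and both UTRs are longer than the median of 1035 bases. Per kb the words numbered 3.54 in ZEB1, 1.68 in ZEB2 and 0.825 in SNAI2. SNAI2 had 1 such word, where 27.7% of UTRs had at least 1, and the other 5 members had 0. The first match to each word is shown for both genes, with the word in capitals. These are letter matches, and no miRNA was measured in these libraries.
ZEB1 at chr10:31816549-31816571, plus strand: gttttatcttatCAGTATTatca
ZEB1 at chr10:31816962-31816984, plus strand: aatcatcagaatCAGTGTTtgtg
ZEB2 at chr2:145146616-145146638, minus strand: actaccatacatCAGTATTttta
ZEB2 at chr2:145146800-145146822, minus strand: aaaaattttgtaCAGTGTTaagg

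Promoter windows of 300 bases from RefSeq (GRCh38.p14) were matched for 5 of the 8 members, with 1 window each for ZEB2, PRRX1, PRRX2 and TWIST2 and 7 for ZEB1. SNAI1, SNAI2 and TWIST1 were not matched. The E2-box CAGGTG, or CACCTG on the opposite strand, is the word that SNAI and ZEB proteins bind, and it occurred in 20.6% of the 35116 windows of all genes. Among the members it was found in 2 of the 7 ZEB1 windows and in no window of ZEB2, PRRX1, PRRX2 or TWIST2. The ZEB1 window with 3 E2-boxes, in capitals, is shown beside the ZEB2 window with none. This pair was chosen with the KO results of both genes known, and whether the word bears on those results was not tested. The E2-boxes of the ZEB1 window shown start at positions -242, -85 and 34 from its start site, and the other ZEB1 window with the word holds 1 at -57.
ZEB1 at chr10:31318966-31319265, plus strand: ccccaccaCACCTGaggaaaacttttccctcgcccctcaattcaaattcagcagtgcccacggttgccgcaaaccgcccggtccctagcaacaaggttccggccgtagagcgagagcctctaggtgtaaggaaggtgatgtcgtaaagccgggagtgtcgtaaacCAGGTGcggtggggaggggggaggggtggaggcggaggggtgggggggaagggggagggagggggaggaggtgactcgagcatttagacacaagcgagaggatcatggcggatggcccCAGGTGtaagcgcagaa
ZEB2 at chr2:144520070-144520369, minus strand: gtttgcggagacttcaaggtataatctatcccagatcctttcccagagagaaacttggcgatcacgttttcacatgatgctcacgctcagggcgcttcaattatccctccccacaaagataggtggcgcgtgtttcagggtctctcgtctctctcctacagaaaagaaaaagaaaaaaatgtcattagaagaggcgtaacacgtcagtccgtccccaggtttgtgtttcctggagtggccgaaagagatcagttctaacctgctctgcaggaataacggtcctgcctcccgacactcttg

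SNAI2, ZEB2 and, from few counts, TWIST1 were higher in ZNF274 KO than in WT NPCs, whereas no member passed the test in HEK293T cells. In NPCs SNAI2 was 7.25-fold higher in KO than in WT libraries, TWIST1 6.79-fold and ZEB2 2.64-fold. Fold changes (FC) were tested with edgeR's quasi-likelihood test, with P values adjusted by Benjamini-Hochberg over all genes tested, and a gene was called when its adjusted P was below 0.05 and its FC above 2. Of the 7 members tested in NPCs 3 were called, all higher, in a comparison that called 16.8% of 20577 genes, 8.45% as higher and 8.36% as lower. Of the 6 members tested in HEK293T cells 0 were called and 0 had an unadjusted P below 0.05, where 0.489% of 19018 genes were called and 1354 genes had such an unadjusted P. With so many genes changed in NPCs, the members' count was read as a description and their values are given gene by gene.

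**Figure D1:**
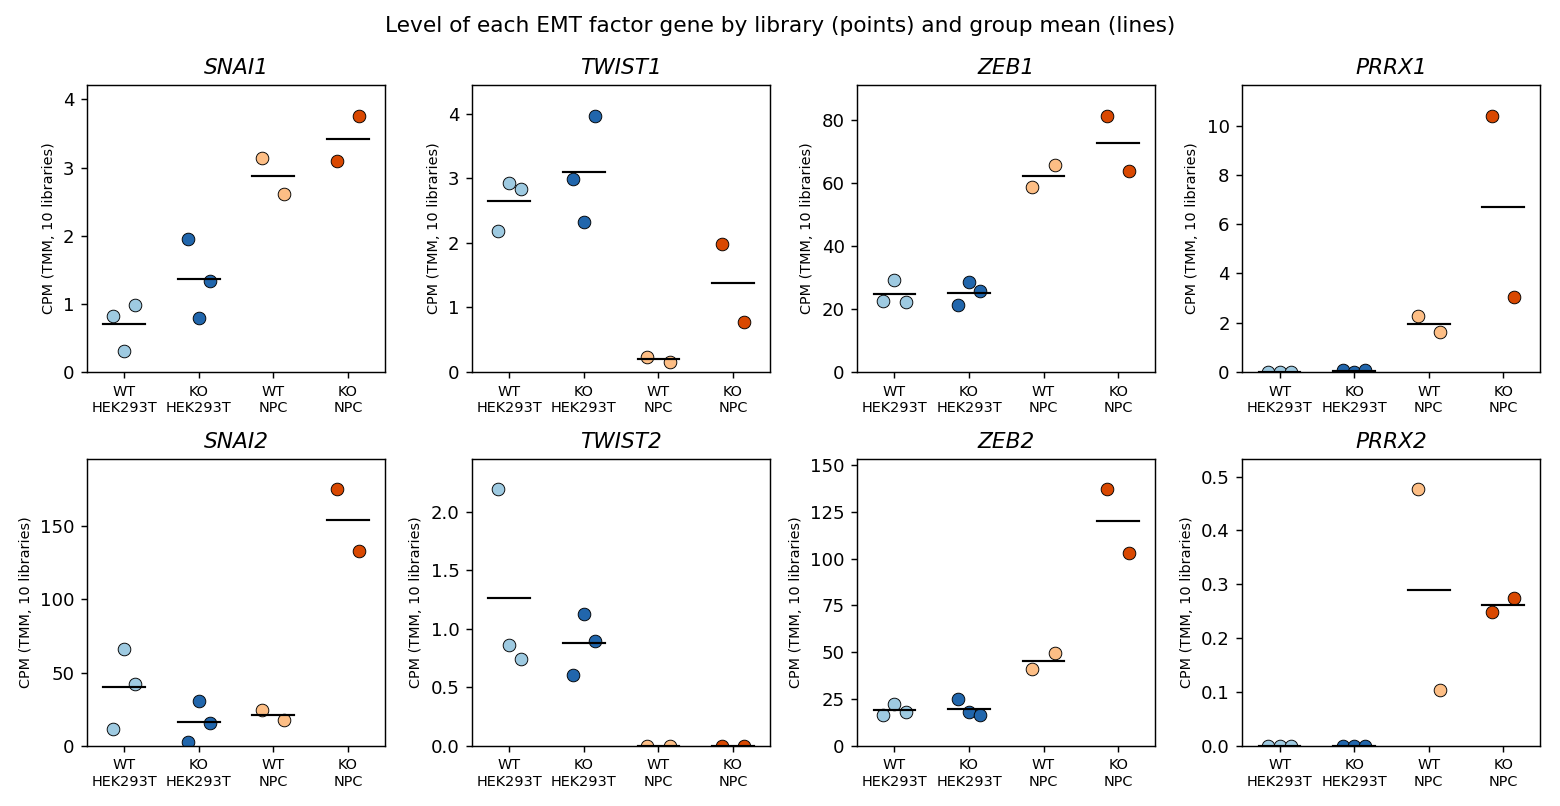
Level of each member in CPM (y axis, a separate linear scale from 0 in each panel) by group (x axis), with 1 point per library and a line at the group mean. The KO NPC libraries sit above both WT NPC libraries for SNAI2, TWIST1, ZEB2 and PRRX1, and the HEK293T groups overlap for every gene detected in both. With 2 libraries per genotype this separation carries little weight by itself. PRRX1 was not called, and SUZ12, also not called, separated in the same way with a log2 FC of 0.07.

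SNAI2 (ENSG00000019549, chr8:49830157-49834299 in hg19) encodes the SNAIL family repressor also known as SLUG, which marks migrating neural crest. It had 511 and 345 counts in the WT NPC libraries S3 and S5 and 3516 and 2887 in the KO libraries S1 and S2, or 24.3 and 17.7 against 175 and 133 CPM. Both KO libraries were far above both WT libraries. The replicates differed 1.37-fold in WT and 1.32-fold in KO, spreads reached by 24.7% and 16.4% of genes with a mean of at least 1 CPM. The log2 FC was 2.86 (SE 0.207, 95% interval 2.37 to 3.35, adjusted P = 0.000189, edgeR's quasi-likelihood test), and 1051 of the 20577 genes tested, or 5.11%, had a log2 FC at least as high. The call held in 14 of 14 alternative analyses, with log2 FC from 2.63 to 3.10.

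In HEK293T cells the same gene varied more between libraries than between genotypes. SNAI2 had 353, 1915 and 1244 counts in WT libraries S15, S16 and S17 and 63, 1006 and 413 in KO libraries S18, S19 and S20. On the CPM scale these levels ran from 2.73 in S18 to 65.9 in S16, a 24.2-fold range, and the genotypes overlapped. Within WT libraries the highest level was 5.64 times the lowest, a spread reached by 29 of 12797 genes with a mean of at least 1 CPM (0.227%). Within KO libraries it was 11.3 times the lowest, reached by 72 of 13066 genes (0.551%). The log2 FC of KO against WT was -1.28 (SE 0.698, 95% interval -2.82 to 0.26, adjusted P = 0.763, edgeR's quasi-likelihood test). It was -0.71 without S16, -0.79 without S18 and -2.12 without S19, and not called in any of these fits. S18 also stood further from the other KO libraries over all genes, with a chi-square per degree of freedom of 75.2 and 66.1 against 24.2 between S19 and S20. Whether the libraries that differ in SNAI2 are different clones is not given.

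SNAI1 (ENSG00000124216, chr20:48599517-48605423), the founding SNAIL family repressor of CDH1, stayed low. It had 66 and 51 counts in WT NPCs and 62 and 82 in KO NPCs, and the genotypes overlapped (log2 FC 0.24, SE 0.325, adjusted P = 0.636, edgeR's quasi-likelihood test). In HEK293T cells it had 25, 9 and 29 counts in WT and 45, 26 and 36 in KO libraries. Its log2 FC there was 0.93 (SE 0.499, 95% interval -0.17 to 2.03, adjusted P = 0.748), and KO library S19 lay below WT libraries S15 and S17 on the CPM scale. An FC of 2 lies within this interval.

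Scaled by exon length, SNAI2 exceeded SNAI1 4.02 and 3.52 times in the WT NPC libraries and 29.5 and 18.3 times in the KO NPC libraries. In HEK293T cells this ratio of levels per kb was 7.34, 111 and 22.3 in WT libraries and 0.728, 20.1 and 5.96 in KO libraries. S18 was the library in which SNAI1 exceeded SNAI2.

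ZEB2 (ENSG00000169554, chr2:145121931-145278624, minus strand) encodes a zinc finger homeobox repressor of the neural crest and of interneurons. Its counts were 858 and 965 in WT NPCs and 2754 and 2248 in KO NPCs, or 40.8 and 49.5 against 137 and 103 CPM. Both KO libraries were above both WT libraries. The log2 FC was 1.40 (SE 0.175, 95% interval 0.99 to 1.81, adjusted P = 0.00155, edgeR's quasi-likelihood test), and the call held in 14 of 14 alternatives. In HEK293T cells ZEB2 had 500, 653 and 539 counts in WT and 576, 599 and 438 in KO libraries, and the genotypes overlapped. The log2 FC was 0.06 (95% interval -0.40 to 0.52), so a change above 2-fold lies outside the interval.

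ZEB1 (ENSG00000148516, chr10:31607424-31818742, plus strand), the paralog of ZEB2, had 1236 and 1280 counts in WT NPCs and 1635 and 1392 in KO NPCs. Its levels of 58.8 and 65.6 CPM in WT overlapped those of 81.4 and 63.9 CPM in KO (log2 FC 0.21, 95% interval -0.15 to 0.57, adjusted P = 0.349, edgeR's quasi-likelihood test). In HEK293T cells ZEB1 had 679, 847 and 661 counts in WT and 490, 941 and 689 in KO libraries, a log2 FC of 0.04 (95% interval -0.36 to 0.44). A change above 2-fold is outside both intervals. The lncRNA gene ZEB1-AS1 overlaps the 5′ end of ZEB1 on the other strand, and the strand setting of the counting is not given. Its log2 FC was -0.69 in NPCs (adjusted P = 0.139) and 0.37 in HEK293T cells (adjusted P = 0.863), and neither was called.

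The ratio of ZEB2 to ZEB1 was higher in both KO than in both WT NPC libraries. Per kb of merged exons the level of ZEB2 was 0.23 and 0.249 of that of ZEB1 in WT NPC libraries and 0.557 and 0.534 in KO NPC libraries. Per kb of the longest transcript the same ratios were 0.453 and 0.492 in WT and 1.1 and 1.05 in KO. Which of the ZEB genes was higher in KO NPCs thus turned on the length used, since the merged exons of ZEB2 span 26151 bases and its longest transcript 9583. A gene's length is the same in every library, so the order of the KO and WT libraries cannot depend on it.

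TWIST1 (ENSG00000122691, chr7:19060614-19157259, minus strand), a bHLH factor of cranial neural crest and mesoderm, was close to the floor in WT NPCs. It had 5 and 3 counts there and 40 and 17 in KO NPCs, or 0.238 and 0.154 against 1.99 and 0.78 CPM. Both KO libraries were higher, and they differed 2.55-fold between themselves, a spread reached by 1.06% of genes with a mean of at least 1 CPM. The log2 FC was 2.76 (SE 0.743, 95% interval 1.01 to 4.52, adjusted P = 0.0315, edgeR's quasi-likelihood test). The call was lost with voom (adjusted P = 0.0751) and without KO library S1 (log2 FC 1.93, adjusted P = 0.269), within a range of adjusted P from 0.00454 to 0.269 over the alternatives. In HEK293T cells TWIST1 had 66, 85 and 84 counts in WT and 69, 76 and 107 in KO libraries (log2 FC 0.23, adjusted P = 0.908).

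TWIST2 (ENSG00000233608, chr2:239756673-239832230), which marks dermal and other fibroblast precursors, was detected in HEK293T cells alone. It had 66, 25 and 22 counts in WT and 14, 37 and 24 in KO libraries, so the genotypes overlapped (log2 FC -0.51, 95% interval -1.58 to 0.55, adjusted P = 0.866, edgeR's quasi-likelihood test). The WT library S15 was 2.95 times the lowest WT library, and without S15 the log2 FC turned to 0.14 (adjusted P = 0.97). TWIST2 had 0 counts in all 4 NPC libraries, which allows up to 3 counts in each, and it was not tested there.

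PRRX1 (ENSG00000116132, chr1:170631869-170708562), a homeobox gene of mesenchyme, had 48 and 32 counts in WT NPCs and 208 and 66 in KO NPCs, or 2.28 and 1.64 against 10.4 and 3.03 CPM. Both KO libraries were above both WT libraries, but S1 was 3.42 times S2, a spread reached by 51 of 13702 genes (0.372%). The log2 FC of 1.75 (SE 0.581, 95% interval 0.38 to 3.12) missed the threshold with an adjusted P of 0.0623 in edgeR's quasi-likelihood test. It passed with DESeq2 (adjusted P = 0.0253) and without S2, S3 or S5, and without S1 the log2 FC was 0.60, over a range of adjusted P from 5.23e-06 to 0.521. In HEK293T cells PRRX1 had 0 counts in WT libraries and 2, 0 and 2 in KO libraries, all under the floor. PRRX2 (ENSG00000167157, chr9:132427926-132484953), its paralog, had 10 and 2 counts in WT NPCs, 5 and 6 in KO NPCs and 0 in every HEK293T library. Its log2 FC in NPCs was -0.16 with a 95% interval of -2.50 to 2.18, which holds changes above 2-fold in either direction.

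**Figure D2:**
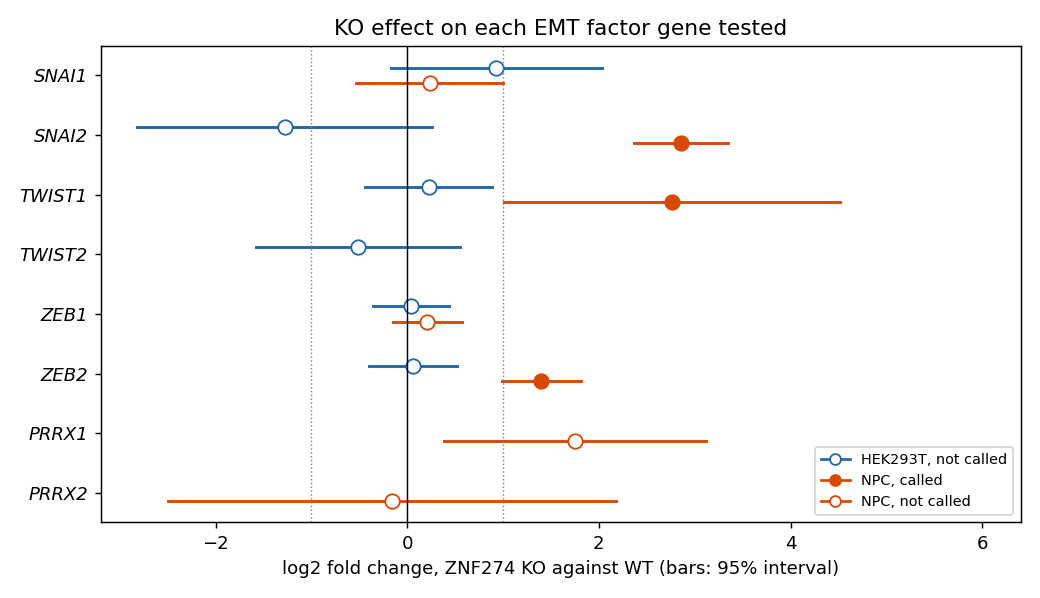
Log2 FC of ZNF274 KO against WT (x axis) for each member tested (y axis), in HEK293T cells (blue) and NPCs (orange). Points are the edgeR estimates, bars the 95% intervals, filled points the calls, and dotted lines mark an FC of 2 in either direction. SNAI2, TWIST1 and ZEB2 are the filled points, all in NPCs, with log2 FC of 2.86, 2.76 and 1.40.

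An interaction term, fitted over all 10 libraries, asked whether the KO acted differently in NPCs and HEK293T cells. It was called for 3 of the 8 members tested, each with the larger effect in NPCs. Over all genes 12.2% of 19255 were called, 6.01% in that direction. The log2 FC in NPCs exceeded that in HEK293T cells by 4.15 for SNAI2 (SE 1.07, adjusted P = 0.0208, edgeR's quasi-likelihood test), by 2.56 for TWIST1 (SE 0.712, adjusted P = 0.0302) and by 1.36 for ZEB2 (SE 0.303, adjusted P = 0.0104). SNAI1 and ZEB1 had differences of -0.68 and 0.19 and were not called. TWIST2, PRRX1 and PRRX2, each at 0 in at least 1 whole group, were tested and not called. Their fitted differences, such as -1.69 for PRRX1 (SE 1.42), rest on those zeros. The call was lost in 6 of 19 alternatives for SNAI2, in 8 of 19 for TWIST1 and in 2 of 19 for ZEB2. With 1 library left out the difference ran from 3.58 to 4.96 for SNAI2, from 1.74 to 3.09 for TWIST1 and from 1.14 to 1.55 for ZEB2. The number of members called fell from 3 to 0 without KO NPC library S1, and to 1 without S16, S3 or S5. Without S1 the difference for ZEB2 was 1.14 (adjusted P = 0.0691) and for SNAI2 3.94 (adjusted P = 0.0679). The model shares 1 estimate of spread between the HEK293T and NPC libraries, whose replicates spread differently for SNAI2.

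The members also separated the WT cells of the 2 types. In WT NPCs against WT HEK293T cells 7 of the 8 were called, 5 higher and 2 lower, in a comparison that called 40.7% of 19255 genes, 25.2% higher and 15.5% lower. ZEB1 was 2.52-fold higher in NPCs (adjusted P = 5.54e-05, edgeR's quasi-likelihood test), ZEB2 2.36-fold (adjusted P = 0.000293) and SNAI1 4.05-fold (adjusted P = 0.00349). PRRX1, at 0 in WT HEK293T cells, was at least 19.4-fold higher when the floor of 3 counts per library is put in place of 0, and PRRX2, with 10 and 2 counts in NPCs, was at least 2.85-fold higher by the same rule, a call that was lost without S3 (adjusted P = 0.0967), which leaves 2 counts, under the floor. The bound for PRRX2 was 1.01-fold without S3 and 4.69-fold without S5. TWIST1 was 13.2-fold lower in NPCs (log2 FC -3.72, adjusted P = 0.000126) and TWIST2 at least 8.52-fold lower, or 5.41-fold without S15, its highest WT library. SNAI2 was the member that did not pass, with 39.9 ± 27.2 CPM (SD, n = 3) in HEK293T cells and 21 ± 4.68 CPM (SD, n = 2) in NPCs.

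Per kb of merged exons, the order of levels in WT NPCs began with ZEB1 at 7.19 ± 0.559 CPM per kb and SNAI2 at 6.4 ± 1.43 (SD, n = 2), whose libraries overlapped. ZEB2 at 1.73 and SNAI1 at 1.69 followed and overlapped as well, and PRRX1 (0.238), PRRX2 (0.221) and TWIST1 (0.098) came last before TWIST2 at 0. Per kb of the longest transcript these overlaps ended, with ZEB1 at 9.4 and 10.5 above SNAI2 at 8.59 and 6.25, and ZEB2 at 4.26 and 5.16 above SNAI1 at 1.84 and 1.53. In KO NPCs, per kb of merged exons, SNAI2 led with 46.9 ± 9.16 CPM per kb, ahead of ZEB1 (8.4 ± 1.43), ZEB2 (4.59 ± 0.917) and SNAI1 (2.01 ± 0.281). SNAI2 made up 73.8 and 73.6% of the summed level per kb of the 8 genes in S1 and S2, and 40.3 and 32.2% in S3 and S5. The sum itself was 18.4 and 16.8 CPM per kb in WT and 72.2 and 54.9 in KO NPCs. In WT HEK293T cells SNAI2 (12.2 ± 8.29 CPM per kb, SD, n = 3) was above ZEB1 (2.85 ± 0.452) in each library, followed by TWIST1 (1.33 ± 0.202). TWIST2 (0.747 ± 0.474), ZEB2 (0.73 ± 0.117) and SNAI1 (0.414 ± 0.206) were lower in the mean and not all separated from each other beyond their spread, and in S15 TWIST2 (1.29) was above TWIST1 (1.09). Per kb of the longest transcript ZEB2, at 1.99, came before TWIST1, at 1.63.

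**Figure D3:**
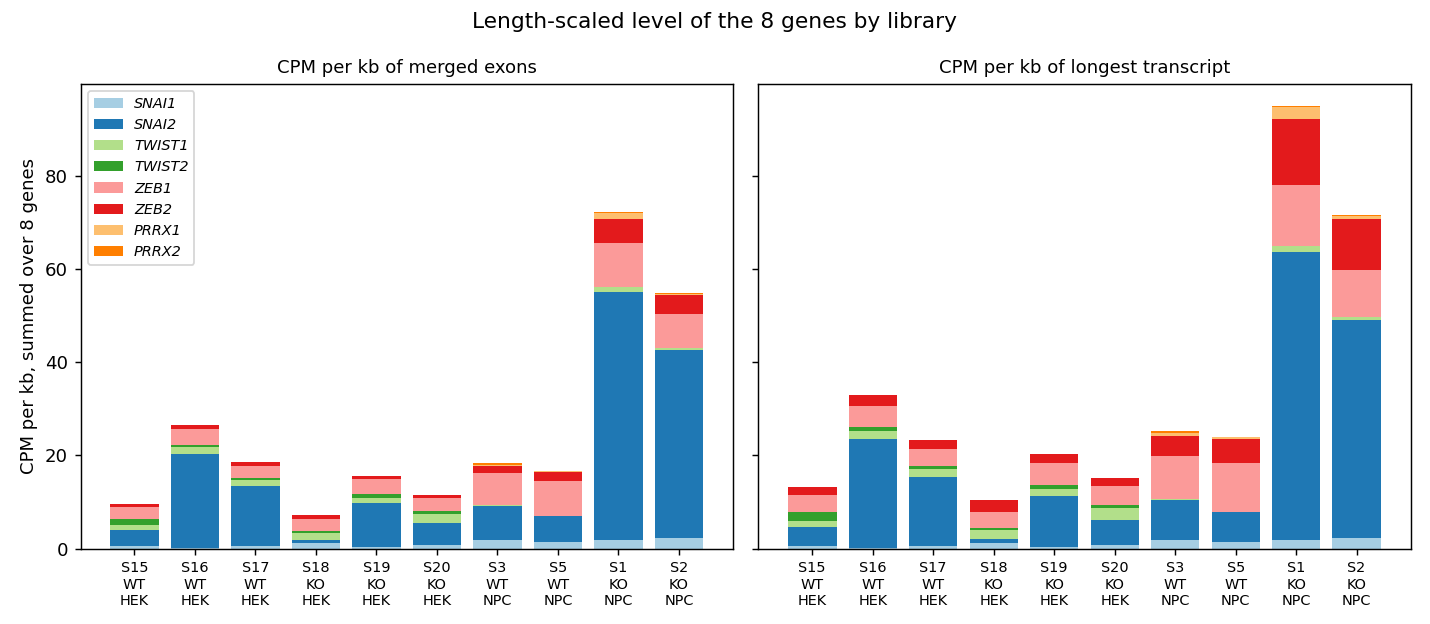
Level of the 8 members in each library, stacked, in CPM per kb (y axis, from 0), with length taken as merged exons (left) or as the longest transcript (right). On the left the KO NPC libraries S1 and S2 reach 72.2 and 54.9 against 18.4 and 16.8 in WT NPCs, and SNAI2 is the main share of both.

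Genes that work with or against the members were described from lists, by counts and medians beside all genes tested, whose median log2 FC was -0.022 in NPCs and 0.011 in HEK293T cells. In HEK293T cells 0 of the 170 list genes tested were called by edgeR's quasi-likelihood test, DESeq2 or voom, and 6 had an unadjusted P below 0.05. In NPCs, where 8.45% of all genes tested were called higher and 8.36% lower, 4 of 7 genes for E-proteins, which pair with TWIST, and for ID proteins, which sequester those partners, were called lower and 0 higher, with a median log2 FC of -1.03. ID4 went from 87.4 ± 9.8 to 4.23 ± 1.9 CPM (SD, n = 2 per genotype), ID2 from 49.9 ± 20.2 to 6.03 ± 1.97, ID1 from 86.1 ± 33.7 to 23.2 ± 3.73 and the E-protein gene TCF3 from 199 ± 19 to 98.4 ± 9.35. Among 13 corepressors of SNAI and ZEB proteins 1 was called, LOXL2, a lysyl oxidase that stabilizes SNAIL, at 126 ± 4.06 CPM in WT and 836 ± 65.2 in KO (log2 FC 2.71). The 13 tested genes for kinases, phosphatases and ubiquitin enzymes that set SNAI and TWIST protein stability held 1 call, FBXL14, a ubiquitin ligase subunit that targets SNAIL, with a log2 FC of -1.14. As shares, 1 of 13 is close to the share of all genes called in 1 direction.

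TGF-beta signaling is a main inducer of EMT. Of 16 genes for ligands, receptors and SMADs of its family, not all of which promote EMT, 6 were called higher in KO NPCs and 1 lower. The shares of all genes were 8.45% and 8.36%, and the family's median log2 FC was 0.69. TGFB1 rose from 3.61 ± 1.41 to 79.7 ± 17.6 CPM and the activin subunit INHBA from 3.1 ± 0.548 to 33.1 ± 2.2, with TGFB2, TGFB3, TGFBR2 and SMAD7 also called higher. BMP7 fell from 278 ± 38.3 to 26.7 ± 2.31 CPM. Of 18 further transcription factors tied to EMT 10 were called higher and 0 lower, with a median log2 FC of 2.36. FOXC2 went from 1.23 ± 0.144 to 31.2 ± 5.87 CPM, RUNX1 from 2.85 ± 0.546 to 32.7 ± 0.15 and WWTR1, which encodes the coactivator TAZ, from 63.1 ± 4.6 to 224 ± 38.8. Relatives of the members outside the 8 were mostly low, and 2 of 7 tested were called, ALX4 and TCF15, both higher. DESeq2 called 1 of the 7, and voom 1.

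Targets of EMT factors moved in both directions. Of 25 mesenchymal genes 13 were called higher and 1 lower in KO NPCs, against 8.45% and 8.36% of all genes, with a median log2 FC of 1.81. COL1A1 rose from 603 ± 62.2 to 3527 ± 61.3 CPM, and MMP2 fell from 210 ± 40 to 29.5 ± 11.1. VIM, the mesenchymal filament gene, stood at 6431 and 6856 CPM (log2 FC 0.08), and CDH2, N-cadherin, at 764 in WT and 439 in KO (log2 FC -0.81, adjusted P = 0.00319, FC below the threshold of 2). Of 31 epithelial genes 5 were called higher and 5 lower, with a median log2 FC of 0.10. DSP, a desmosome gene, rose from 21.2 ± 1.89 to 205 ± 9.46 CPM and KRT18 from 165 ± 67.3 to 758 ± 69.8, whereas P-cadherin CDH3 fell from 17.2 ± 2.44 to 3.37 ± 1.6. CDH1, the best known target of the SNAI and ZEB repressors, was near absent in WT NPCs already (0.0238 CPM). In KO NPCs it stayed near absent at 0.14 CPM, from 1 and 5 counts (log2 FC 2.25, adjusted P = 0.371, edgeR's quasi-likelihood test). It stood at 6.28 ± 1.26 CPM in WT and 7.26 ± 3.99 in KO HEK293T cells (SD, n = 3). Of 7 genes that restrain EMT in epithelia 0 were called by edgeR, DESeq2 or voom and 2 had an unadjusted P below 0.05. The host gene of miR-200c and miR-141, MIR200CHG, had 0 counts in all HEK293T libraries. MIR200CHG is not listed for NPCs and has no value there.

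**Figure D4:**
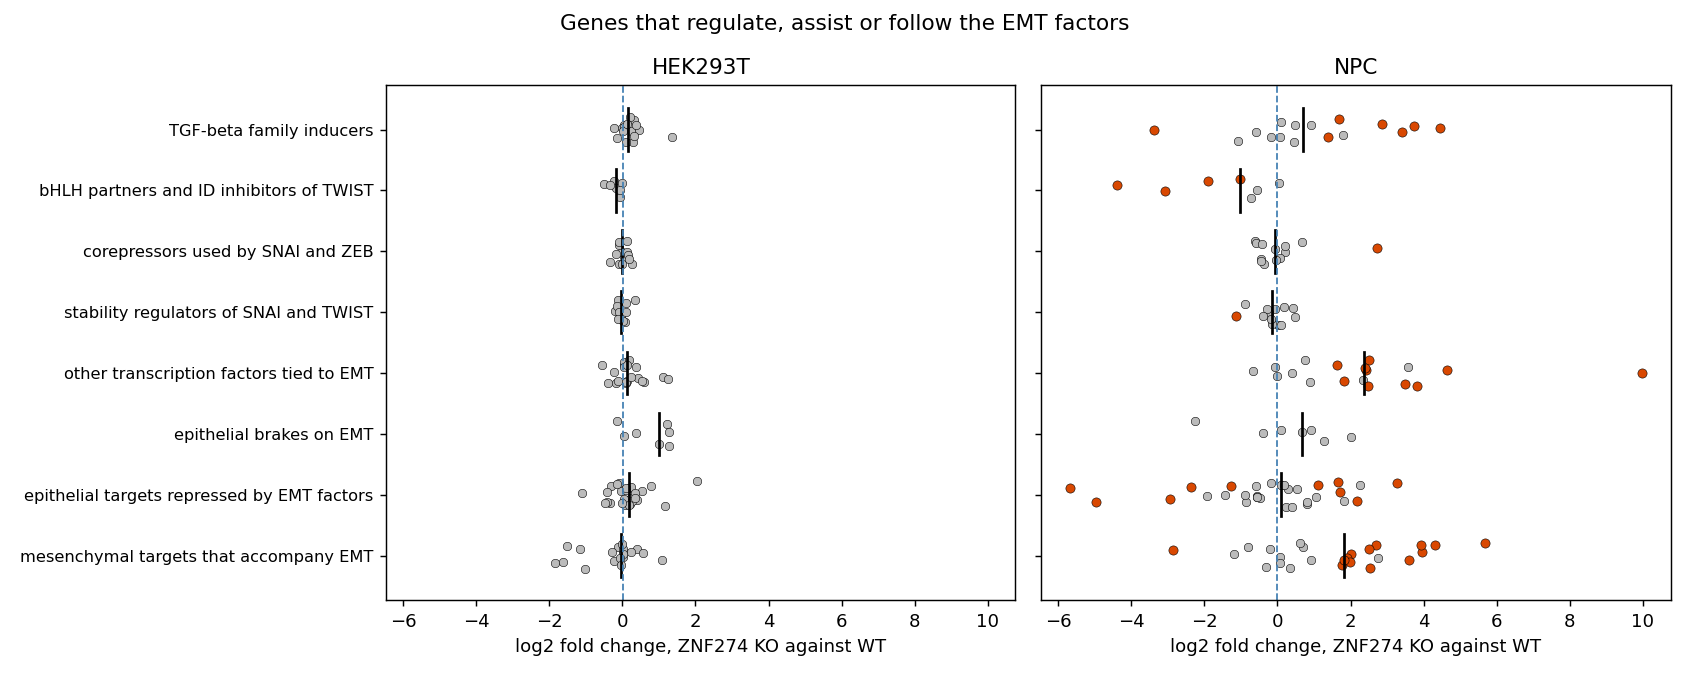
Log2 FC of ZNF274 KO against WT (x axis) for the tested genes of 8 lists (y axis) in HEK293T cells (left) and NPCs (right). Each point is a gene, orange if called, black bars are list medians and the dashed line is the median of all genes. Orange points occur in the NPC panel alone, with list medians of -1.03 for TWIST partners and inhibitors and 2.36 for other EMT transcription factors.

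Markers of other cell types moved in the same libraries as SNAI2, ZEB2 and TWIST1. In KO NPCs 6 of 12 neural crest markers were called higher and 0 lower, against 8.45% and 8.36% of all genes. DESeq2 called 5 of the 12 and voom 4. ETS1 and SOX9, called here, are also among the further EMT transcription factors above. The summed level of the neural crest markers was 523 to 575 CPM against 84.6 to 169 in WT. ETS1 carried most of this sum in KO, at 61.7 ± 21.1 CPM in WT and 325 ± 7.61 in KO. PAX3 went from 0.456 ± 0.443 to 48.2 ± 6.12 CPM and SOX10 from 0.0513 ± 0.0725 to 4.35 ± 4.13, while DLX5 was at 0 in both KO libraries and in WT library S3. PAX7, MSX1 and TFAP2A had log2 FC of -1.57, -1.64 and -0.16 and were not called. Of 14 fibroblast and smooth muscle markers 6 were called higher and 0 lower, with sums of 9752 to 10581 CPM in KO and 2784 to 3297 in WT. Of these calls COL1A1, TAGLN, COL3A1 and PDGFRB are also among the mesenchymal genes called above. Epithelial and trophoblast markers had 3 of 7 called higher, with sums of 1328 to 1503 CPM against 342 to 600. In KO most of the sum was KRT18, at 758 ± 69.8 CPM, and KRT8, at 621 ± 43.3, both also among the epithelial genes called above. EPCAM went from 3.26 to 2.22 CPM and was not called. Of 18 neural markers 11 were called lower and 1 higher, and SOX2 went from 224 ± 6.01 to 17.2 ± 6.14 CPM and MAP2 from 1044 ± 66.3 to 149 ± 25.3. Their sums were 3561 to 3651 CPM in KO and 4166 to 5299 in WT, and in KO most of the sum was NES, at 2637 ± 513 CPM in WT and 3177 ± 44.1 in KO (log2 FC 0.25, not called). Endothelial and blood markers had 3 of 8 called higher and 1 lower, with overlapping sums of 53.4 to 179 CPM in WT and 110 to 136 in KO. DESeq2 called 2 of these 8 and voom 3. Pluripotent markers had 1 of 7 called higher and 2 lower. The list set for the HEK293T line had 1 of 4 called lower, NEFM, a neuronal gene (314 ± 128 CPM in WT and 94.3 ± 16.9 in KO). SNAI2, TWIST1, ZEB2 and PRRX1 are themselves expressed in neural crest or mesenchyme. In bulk RNA a larger share of such cells and more RNA per cell cannot be told apart, and the part of cell composition in the members' changes was not tested.

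The nearest tested genes on either side of each member, by annotated start, were called in 2 of 16 cases in NPCs, where 16.8% of all genes were called. There DESeq2 called 3 of the 16 and voom 2, and 6 had an unadjusted P below 0.05. In HEK293T cells 0 of 16 were called by edgeR, DESeq2 or voom and 0 had an unadjusted P below 0.05, where 0.489% of all genes were called. In NPCs the pseudogene KRT18P4 before SNAI1 was called at 0 in WT and 0.381 CPM in KO. Only unique alignments were counted, and whether its reads came from KRT18 was not tested. FMO1, after PRRX1, was called lower, from 3.68 to 0.0478 CPM. HDAC9, before TWIST1, went from 44.6 to 22.3 CPM (log2 FC -1.02, adjusted P = 0.0577, edgeR's quasi-likelihood test), opposite in sign to TWIST1, and POLR1F, after TWIST1, from 46.2 to 61.8 CPM (log2 FC 0.41, adjusted P = 0.0806), with the same sign. CLXN, before SNAI2, went from 7.44 to 1.92 CPM (log2 FC -1.97, adjusted P = 0.0728), opposite in sign to SNAI2. The neighbors of ZEB2, GTDC1 and the overlapping ZEB2-AS1, had log2 FC of 0.17 and -0.10.

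The genes whose levels ran most like a member were taken by Pearson r of log2(CPM + 0.5) over the 10 libraries among 15232 genes, as a description, since libraries of a cell type share a table and group together. For SNAI2 it was FHOD1, a formin (r = 0.971), for ZEB2 the integrin gene ITGAV (r = 0.994), and for ZEB1 the WNT coreceptor gene LRP6 (r = 0.994). For PRRX1 it was XKR4 (r = 0.992), for TWIST1 NDRG1 (r = 0.979) and for TWIST2 MRPL34 (r = 0.987). With a pseudocount of 1 in place of 0.5, DENND2C took the place of NDRG1 and RPS2P7 that of MRPL34.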

How the data were processed

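Counts per gene were deposited in 1 table per cell type. They are raw: the authors aligned stranded mRNA reads with hisat2 (hg19) and assigned unique alignments to genes and transposable elements by featureCounts. Versions, the gene annotation and the strand setting of the counting are not given in the sources used here. Groups were taken from the labels. All libraries were kept, since pairs within a group differed beyond sampling noise (chi-square per degree of freedom 9.75 to 75.2).

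Each table was tested by itself with edgeR 4.0.16 in R 4.3.3 (TMM, quasi-likelihood test, Benjamini-Hochberg), over genes with a total count of at least the number of libraries (6 in HEK293T cells, 4 in NPCs). The difference between cell types and the WT contrast came from a model of 4 groups over 10 libraries, for genes in both tables with at least 10 counts in total. The study used voom, which is an alternative here (limma 3.58.1), as are DESeq2 1.42.0, other normalizations, filters and thresholds, robust estimation, 1 fit of all libraries, and each library left out. The tests were checked on simulated counts. CPM, length-scaled levels (GENCODE 44 lifted to hg19, 23273 of 24050 identifiers matched) and intervals were computed from the counts.

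The members, gene lists and marker lists were chosen with earlier results of these data known. Named genes are all members, ZNF274, at most 4 genes per list (the called ones with the lowest adjusted P, up to 2 per direction where both occur, otherwise the most abundant) together with list members named as called, the nearest tested neighbors and the most alike genes. VIM, CDH2, CDH1, MIR200CHG, NES, EPCAM, DLX5, PAX7, MSX1, TFAP2A and the lists' other called members were named after their values were seen. Other assays of the study were not analysed here. Some genes that these rules name are not reported here.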

Additional observations from a re-analysis of the deposited data

Results flagged for a closer look

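In 3 members the KO effect differed between the cell types by the test of the interaction. The log2 FC in NPCs minus that in HEK293T cells was 4.15 for SNAI2, whose HEK293T libraries ran from 2.73 to 65.9 CPM, 2.56 for TWIST1, which had 5 and 3 counts in WT NPCs, and 1.36 for ZEB2. Cell type and table cannot be told apart in this difference.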

How the results depend on the processing

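No member was called in HEK293T cells under any alternative. In NPCs SNAI2 and ZEB2 kept their calls in 14 of 14 alternatives, TWIST1 in 11 of 14, and PRRX1 became called in 4 of 14. The number of members whose KO effect differed between cell types was 3, between 0 and 3 with 1 library left out, and 0 at an adjusted P below 0.01, where ZEB2 had 0.0104. Robust estimation took the call from SNAI2 (adjusted P = 0.0976) and voom from TWIST1 (adjusted P = 0.0642). The cause was not tested. Some estimates that were not called changed sign. With 1 library left out the log2 FC ran from -0.79 to 0.14 for TWIST2, -0.06 to 0.17 for ZEB1 and -0.14 to 0.19 for ZEB2 in HEK293T cells, and from -0.86 to 1.29 for PRRX2 in NPCs. With voom PRRX2 had a log2 FC of 0.13 in NPCs, and with library size alone the difference between cell types for ZEB1 was -0.02. The bound for TWIST2 between WT cells, with libraries left out after the data were seen, was 5.41 to 10.3-fold. The differences between cell types for TWIST2, PRRX1 and PRRX2, each at 0 in a whole group, rest on those zeros and were not followed here. PRRX2 did not pass edgeR's filterByExpr and has no value there. Over all genes, 93 calls in HEK293T cells became 162 with DESeq2, 57, 44 and 61 without S15, S16 and S17, and 61 at an adjusted P below 0.01. The 3459 calls in NPCs became 2084 without S1, 5890 with no FC threshold and 2225 at the stricter P. The 2354 calls of the difference became 1455 without S1, 1531 without S2 and 1224 at the stricter P. Leaving out an NPC library leaves 1 in its genotype, which is then assumed to vary like the other libraries. No paired analysis was possible because the groups share no replicate numbers. TWIST1 in WT NPCs, PRRX2, and PRRX1 in HEK293T cells are limited by depth.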
